A study of Mus musculus with 8 samples.

Results

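The cytosolic aminoacyl-tRNA synthetases and the target genes of the transcription factor ATF4 were followed in the epidermis of mice with and without REDD1, across 3 topical treatments. The set held 35 genes of the 54232 identifiers in each count file. They were listed by symbol and mapped from the Ensembl identifiers, with no measured value in the rule, although earlier results of these data were known when the list was drawn up. It comprised 20 synthetases, 5 enzymes of serine, glycine and one-carbon metabolism (Phgdh, Psat1, Psph, Shmt2, Mthfd2), 3 enzymes of asparagine and proline synthesis (Asns, Aldh18a1, Pycr1), 3 subunits of amino acid transporters (Slc7a5, Slc3a2, Slc7a1) and 4 stress factors (Atf4, Ddit3, Trib3, Chac1). All 35 passed the filter on low counts.

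ATF4 is the main transcriptional effector of the integrated stress response. When uncharged tRNA, unfolded protein in the endoplasmic reticulum, haem shortage or double-stranded RNA activates one of the kinases of the initiation factor eIF2, bulk translation falls while the Atf4 mRNA is translated more. The ATF4 protein binds C/EBP-ATF response elements together with C/EBP partners and raises genes that import, make and charge amino acids. ATF4 output also rises with growth signalling through mTORC1. REDD1, encoded by Ddit4, is an inhibitor of mTORC1 and is itself an ATF4 target. It is also induced by glucocorticoids in skin.

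Female wild-type (WT) and REDD1 knockout (KO) mice of one F1 C57Bl x 129 background received acetone, TPA or FA followed by TPA on the shaved back. TPA, a phorbol ester that activates protein kinase C and makes epidermis proliferate and inflame, was given at 4 ug in 200 ul of acetone. FA, the glucocorticoid fluocinolone acetonide, was given at 2 ug in 200 ul of acetone, 1 h before TPA, and vehicle animals received 200 ul of acetone. Skin was taken 24 h after TPA, and epidermis was scraped off for total RNA. The 8 libraries were 2 WT vehicle, 2 KO vehicle, and 1 each of WT TPA, KO TPA, WT FA+TPA and KO FA+TPA. Both genotypes shared the F1 background, no group received FA alone, and how the knockout allele was made is not given in the sources used here. The labels do not say whether numbered replicates came from separate mice, so the p-values speak only to how far these samples vary, and that variation could be technical.

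Library totals ranged from 16874233 to 22560098 counts, and 3 counts corresponded to 0.133 to 0.178 CPM when scaled to the library total alone. All other CPM values are counts scaled to the library total of the tested genes times the TMM factor of that library. Ddit4 was at 128 and 117 CPM in WT vehicle and at 18.8 and 18.6 CPM in KO vehicle. In treated skin, Ddit4 was at 64.2 CPM in WT against 4.44 in KO after TPA, and at 90.3 against 7.25 after FA+TPA, so every library matched its genotype label. The fitted log2 difference of Ddit4 between KO and WT was -3.16 over all treatments and -2.71 in vehicle. Keratinocyte markers (9 genes, Krt5 and Krt14 among them) summed to between 21600 and 24680 CPM in vehicle skin, 22470 and 17790 CPM in WT and KO TPA, and 35610 and 31030 CPM in WT and KO FA+TPA. After TPA 1 of the 9 was higher and 4 were lower, and FA+TPA against TPA had 6 of 9 higher and none lower. Neutrophil markers (7 genes, S100a8 and S100a9 among them) summed to between 4.24 and 14.9 CPM in vehicle. They reached 931 and 396 CPM in the WT and KO TPA libraries and 108 and 199 CPM after FA+TPA. Of the 5 tested, 4 were higher after TPA, and Elane was at 0 throughout. Which cells carried these RNAs was not tested. Markers of cycling cells summed to between 222 and 336 CPM in vehicle, 905 and 918 CPM after TPA, and 849 and 710 CPM after FA+TPA, and 7 of 8 rose after TPA. Markers of macrophages (112 to 312 CPM over all libraries), Langerhans cells (473 to 1024), T cells (49.1 to 80.0), fibroblasts (263 to 1168), skeletal muscle (5.48 to 187) and hair shaft (0.539 to 6.05) were at lower sums than keratinocyte markers in all libraries. After TPA 6 of 9 tested macrophage markers were higher and 1 lower, with sums of 126 CPM in WT TPA and 312 CPM in KO TPA. Of 6 Langerhans cell markers 1 was higher and 5 were lower, of 7 T cell markers 1 and 4, and of 6 fibroblast markers 2 and 3. No muscle marker was called, and the 1 tested hair shaft marker was lower. One noncoding RNA, Gm26917, took 8.34% to 13.8% of counts in vehicle and 16.8% to 24.2% in treated libraries. The part of these shifts in the results for the ATF4 and synthetase genes was not tested. In bulk epidermis, more cells of a type and more RNA per cell cannot be told apart.

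The promoters show where an element of the ATF4 type could be read in the sequence. RefSeq promoter windows on build GRCm38.p6 were matched for 27 of the 35 genes, and the 250 bases before each start were searched on both strands for the C/EBP-ATF response element written as TGATGNAA. The genes without an entry were Rars, Nars, Hars, Cars, Vars, Wars, Lars and Slc7a5. A match stood in 6 of 27 promoters (22.2%), beside 3.91% of all 27025 genes in the table. The 6 were the synthetases Aars, Gars and Tars, the glutathione-degrading enzyme gene Chac1, asparagine synthetase (Asns) and the proline enzyme gene Pycr1. The stretches around 5 of these matches are shown because they carry the letters, each written 5′ to 3′ on the strand of its gene with the matching letters in capitals. In Asns the match lies within an annotated exon, and only 30 bases are given.
Gars, chr6:55037911-55038000 (+): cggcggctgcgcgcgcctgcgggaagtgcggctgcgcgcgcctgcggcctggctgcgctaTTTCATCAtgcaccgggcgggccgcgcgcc
Tars, chr15:11399666-11399733 (-): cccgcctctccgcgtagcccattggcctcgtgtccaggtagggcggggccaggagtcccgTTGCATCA
Chac1, chr2:119350992-119351116 (+): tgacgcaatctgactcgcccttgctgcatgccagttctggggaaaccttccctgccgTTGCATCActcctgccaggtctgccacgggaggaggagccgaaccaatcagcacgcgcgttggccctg
Asns, chr6:7693214-7693243 (-): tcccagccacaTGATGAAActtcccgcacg
Pycr1, chr11:120643784-120643911 (-): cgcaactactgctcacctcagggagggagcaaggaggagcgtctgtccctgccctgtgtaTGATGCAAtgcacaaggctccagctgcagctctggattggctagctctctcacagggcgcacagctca

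In Asns and Pycr1 the element read in the direction of the gene, and in Gars, Tars and Chac1 it read on the opposite strand (TTNCATCA). It lay 16 to 23 bases before the start in Asns and 186 to 193 bases before it in Chac1. None of the 5 serine, glycine and one-carbon genes held it, and none of the 15 mitochondrial synthetase promoters in the table did. Of 23 promoters of other ATF4-pathway genes, 7 held it (30.4%). The endoplasmic reticulum stress element (CCAAT, any 9 bases, CCACG) stood in 0 of the 27 promoters, beside 0.13% of all genes. It stood in 5 of 13 promoters of genes of the unfolded protein response. The E-box CACGTG stood in 4 of the 27 (Aars, Farsb, Iars and Aldh18a1), beside 6.86% of all genes. A match describes the letters in this window and does not show binding, and its absence says only that these letters were not in the window.

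Levels of different genes were compared as CPM per kilobase of exon, with the length taken over all annotated exons of a gene. That length was 2.36 kb for Atf4, 6.57 kb for Qars, 9.28 kb for Aars and 18.1 kb for Eprs. It can exceed the length of the mRNA present in epidermis, which was not measured. The order of genes below therefore depends on the annotation. In vehicle epidermis Atf4 stood highest of the 35 at 28.6 CPM per kilobase, followed by the glycyl- and histidyl-tRNA synthetases Gars at 27.4 and Hars at 26.5. Aars and Mthfd2, a mitochondrial folate enzyme, were at 4.23 and 1.68 CPM per kilobase. Pycr1, which makes proline from pyrroline-5-carboxylate in mitochondria, was lowest at 0.133 CPM per kilobase and rested on 4 to 45 counts a library. The stress factors Ddit3 (5.39), Trib3 (3.00) and Chac1 (2.48 CPM per kilobase) were all below Atf4.

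TPA against vehicle asked what the tumour promoter does to amino acid and tRNA charging genes. Of the 35 genes, 32 rose and none fell at an adjusted p under 0.05 in edgeR, where 23.2% of all 19251 genes tested rose and 22.8% fell (46% in either direction). Their median log2 fold change was 0.79, and that of all genes was -0.03. The fit took both genotypes together, with 4 residual degrees of freedom. Both TPA libraries lay above all 4 vehicle libraries for 31 of those 32, the exception being Qars, and also for Dars. The share of all genes with such a separation was not computed. Dars, Ddit3 and Trib3 did not pass. The heat map of each library against the vehicle mean shows the rise in both genotypes.

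**Figure D1:**
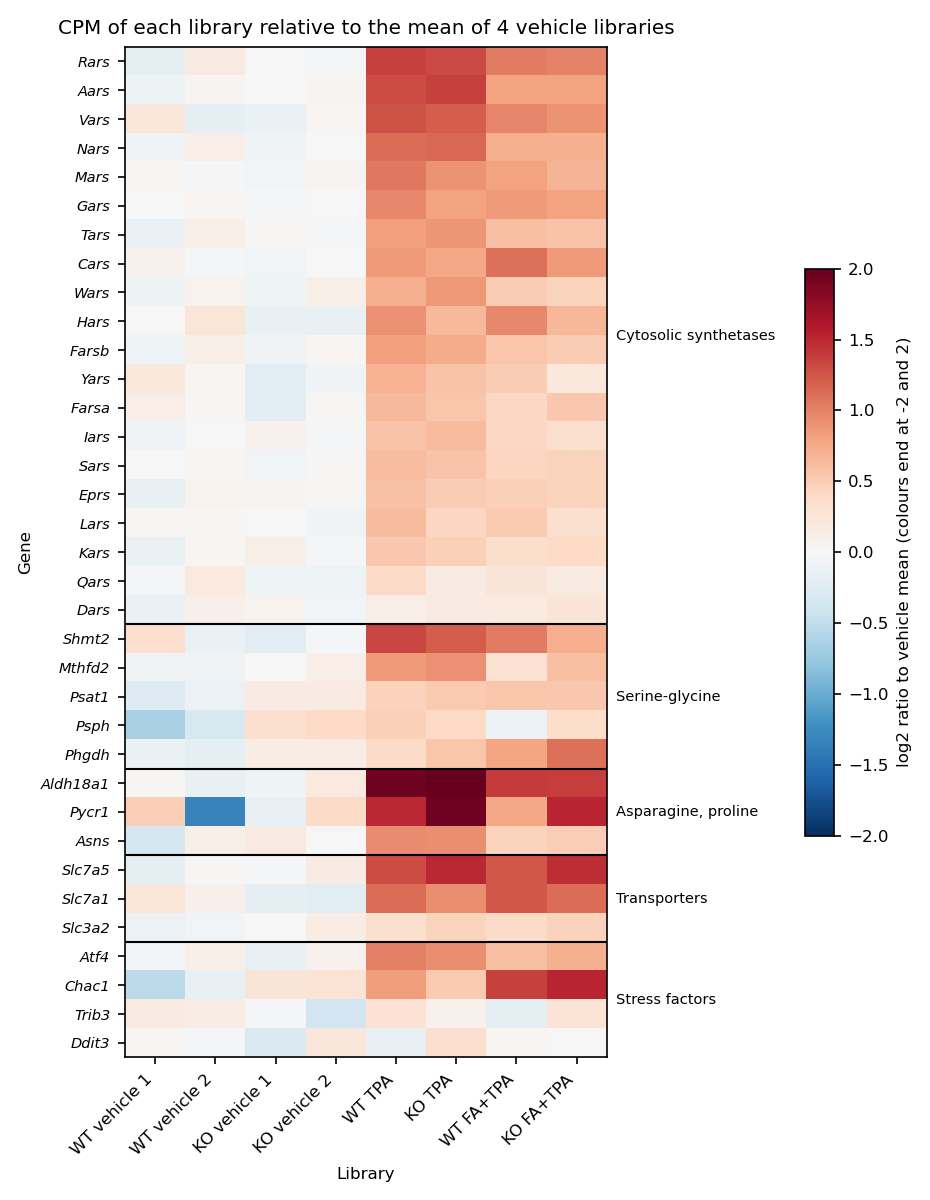
Log2 ratio of CPM in each of the 8 libraries (columns) to the mean of the 4 vehicle libraries for the 35 genes (rows), grouped by role and ordered by their TPA response. Red is above and blue below the vehicle mean. Aldh18a1, Pycr1, Slc7a5, Rars and Aars are among those that stand out in both TPA libraries, while Dars, Ddit3 and Trib3 stay close to the vehicle mean.

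Of the cytosolic synthetases, which attach amino acids to their tRNAs, 19 of 20 rose, with a median log2 fold change of 0.78 and a range from 0.16 to 1.35. The arginyl-tRNA synthetase gene Rars was at 43.8 and 56.0 CPM in WT vehicle, 49.8 and 48.9 in KO vehicle, 129 in WT TPA and 124 in KO TPA. Both TPA libraries lay far above the highest vehicle library, and the log2 fold change was 1.35 ± 0.10 (SE, edgeR, adjusted p = 2.1e-06). The alanyl-tRNA synthetase gene Aars was at 36.4 and 40.7 CPM in WT vehicle, 39.2 and 40.7 in KO vehicle, 97.0 in WT TPA and 102 in KO TPA. The TPA libraries were again well apart from the vehicle libraries, and the log2 fold change was 1.34 ± 0.08 (SE, edgeR, adjusted p = 6.35e-07). The valyl (Vars), asparaginyl (Nars) and methionyl (Mars) enzymes followed, with log2 fold changes of 1.25, 1.14 and 0.98. Gars and Tars, the other synthetases with the promoter element, rose by 0.88 and 0.85, near the middle of the family. The cysteinyl (Cars, 0.81), tryptophanyl (Wars, 0.80) and histidyl (Hars, 0.79) enzymes lay close to them. So did Farsb (0.78), the beta subunit of the phenylalanyl enzyme, while its alpha subunit gene Farsa rose by 0.60. The tyrosyl (Yars, 0.64), isoleucyl (Iars, 0.60), seryl (Sars, 0.59), glutamyl-prolyl (Eprs, 0.54), leucyl (Lars, 0.53) and lysyl (Kars, 0.51) genes made up the lower part of the family.

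At the other end stood Dars, the aspartyl-tRNA synthetase gene, at 38.8 and 45.4 CPM in WT vehicle, 44.3 and 40.7 in KO vehicle, 46.6 in WT TPA and 48.1 in KO TPA. Its TPA values lay only just above the highest vehicle value, and its log2 fold change of 0.16 ± 0.09 did not pass (SE, edgeR, adjusted p = 0.176). The glutaminyl enzyme gene Qars had the smallest fold change of those called, at 0.28. Both belong to the multi-synthetase complex, a cytosolic assembly of 8 of these enzymes' genes with 3 scaffold proteins. Grouped by that complex after their values were seen, 7 of 8 complex genes rose with a median of 0.54, and 12 of 12 of the others rose with a median of 0.81. This split is a description, since Rars in the complex had the largest fold change of the family. The scaffold genes Eef1e1, Aimp2 and Aimp1 rose by 0.82, 0.53 and 0.32.

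The 17 mitochondrial synthetases charge tRNAs inside mitochondria from separate genes, except that Gars and Kars each encode both forms. Of these 17 genes, 3 rose and none fell, with a median log2 fold change of 0.13. Aars2 rose by 0.59 and Sars2 by 0.44, and whether the mitochondrial and cytosolic families differed was not tested.

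**Figure D2:**
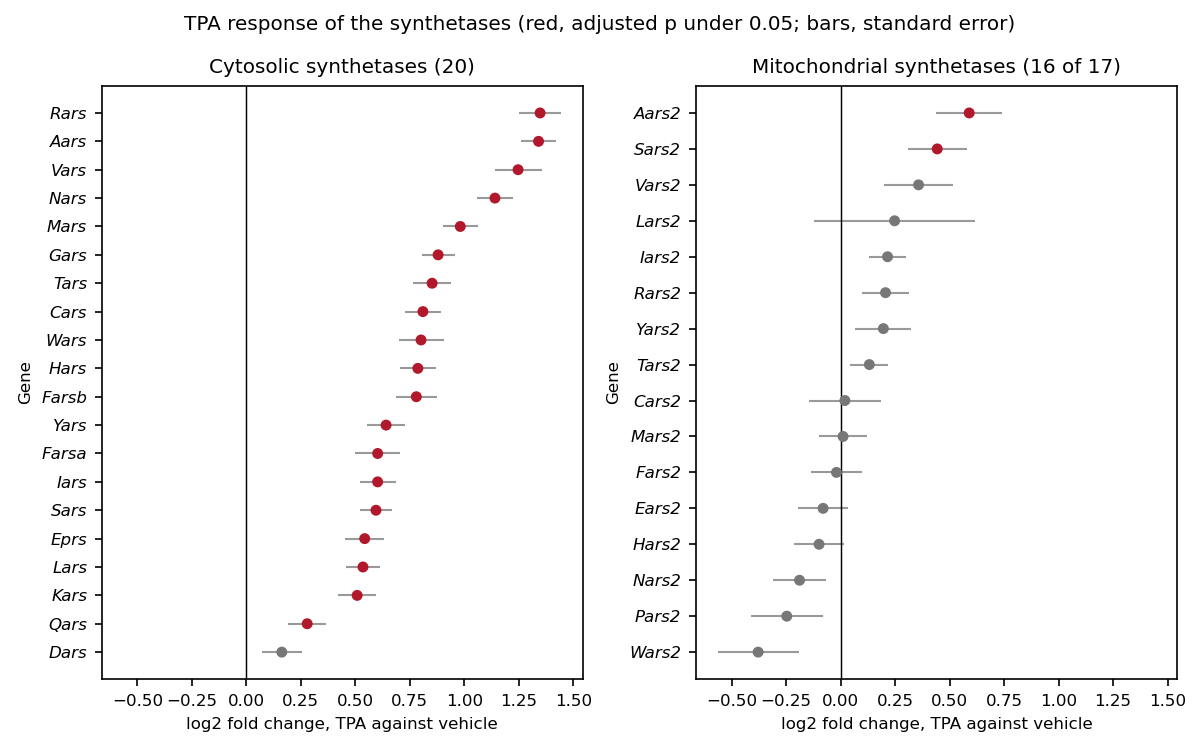
Log2 fold change of TPA against vehicle (points, with the standard error as bars) for the 20 cytosolic synthetase genes and 16 of the 17 mitochondrial ones, red where the edgeR adjusted p was under 0.05. All 20 cytosolic values are above 0, from 0.16 for Dars to 1.35 for Rars, and the mitochondrial values run from -0.38 to 0.59.

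The largest response of the whole set was in proline synthesis. Aldh18a1 makes glutamate semialdehyde, the precursor of proline. It was at 11.5 and 10.2 CPM in WT vehicle, 10.7 and 12.9 in KO vehicle, 43.3 in WT TPA and 45.5 in KO TPA. The TPA libraries lay far above every vehicle library, and the fitted fold was 3.92 (log2 fold change 1.97 ± 0.11, SE, edgeR, adjusted p = 3.53e-07). Pycr1, the next enzyme of that path, rose by 1.74 ± 0.38 on the log2 scale, from 0.21 to 0.73 CPM in vehicle to 1.48 and 2.02 CPM after TPA. Asns rose by 0.94, from between 17.1 and 24.5 CPM in vehicle to 41.8 and 41.5 CPM after TPA.

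All 5 serine, glycine and one-carbon genes rose, with a median log2 fold change of 0.50, but by unequal amounts. The mitochondrial enzymes Shmt2, which turns serine into glycine, and Mthfd2, which oxidises the folate-bound carbon, rose by 1.28 and 0.88. The cytosolic genes of serine synthesis rose less in fold: Psat1 by 0.50, Psph by 0.50 and Phgdh, the first enzyme of the path, by 0.47. Psph, the phosphatase of the last step, was at 14.2 and 17.7 CPM in WT vehicle, 27.8 and 29.1 in KO vehicle, 30.8 in WT TPA and 29.3 in KO TPA. The KO TPA value thus lay barely above the KO vehicle values, while the WT TPA value lay above both WT vehicle values. Without the WT TPA library the log2 fold change of Psph was 0.09 (edgeR, adjusted p = 0.726), and without the KO TPA library it was 0.92. Of 16 other genes of folate and glycine metabolism tested, 4 rose and 3 fell. Aldh1l2, a mitochondrial folate dehydrogenase, rose by 2.82 and Mthfd1l by 0.92, and Gldc, which breaks down glycine, fell by 2.27.

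All 3 transporter genes rose. Slc7a5, which carries large neutral amino acids, was at 29.3 and 33.5 CPM in WT vehicle, 32.8 and 37.0 in KO vehicle, 82.0 in WT TPA and 93.9 in KO TPA. No TPA library overlapped a vehicle library, and the fold was 2.65. The arginine and lysine carrier Slc7a1 rose by 1.03 on the log2 scale. Slc3a2, the heavy chain that takes Slc7a5 to the membrane, rose by 0.38.

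The stress factors were split. Atf4 was at 64.8 and 73.1 CPM in WT vehicle, 60.3 and 71.9 in KO vehicle, 135 in WT TPA and 129 in KO TPA. The TPA libraries lay far above all vehicle libraries, and the log2 fold change was 0.96 ± 0.10 (SE, edgeR, adjusted p = 1.87e-05). ATF4 protein, which is set largely by translation, was not measured. Ddit3, which encodes the pro-apoptotic factor CHOP, was at 9.50 and 9.10 CPM in WT vehicle, 7.60 and 10.8 in KO vehicle, 8.32 in WT TPA and 11.7 in KO TPA. Its groups overlapped, and its log2 fold change of 0.12 ± 0.18 did not pass (SE, edgeR, adjusted p = 0.618). Trib3, a pseudokinase that restrains ATF4 and CHOP, ran from 4.90 to 7.24 CPM in vehicle and was at 7.77 and 6.78 CPM after TPA, with a log2 fold change of 0.19 ± 0.20 (SE, edgeR, adjusted p = 0.455). Chac1 rose by 0.70 ± 0.21, from between 2.83 and 4.90 CPM in vehicle to 7.27 and 5.84 CPM after TPA. Its log2 fold change was 0.34 without the WT TPA library (edgeR, adjusted p = 0.328) and 1.10 without the KO TPA library.

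**Figure D3:**
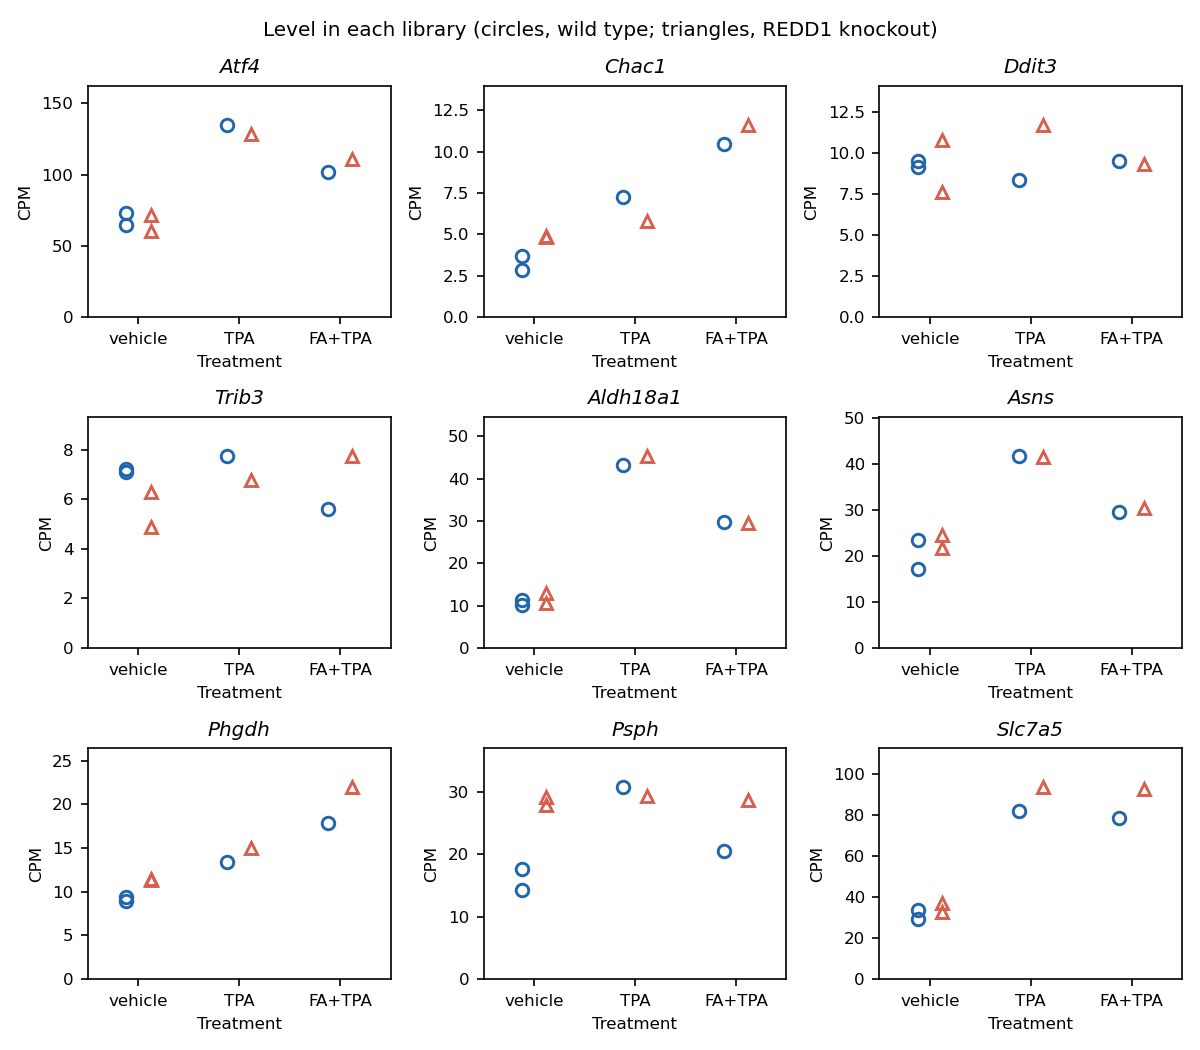
CPM of 9 genes in every library by treatment, with WT as circles and KO as triangles, each axis starting at 0. Atf4, Aldh18a1, Asns and Slc7a5 lie above all vehicle libraries in both TPA libraries, Ddit3 and Trib3 overlap between treatments, and Psph separates WT from KO in vehicle skin.

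Genes around ATF4 moved in both directions after TPA. Of 16 genes of the eIF2 kinases, phosphatases and eIF2 complexes, 8 rose and 1 fell. Eif2b4, a subunit of the exchange factor that recharges eIF2, rose by 1.07, the phosphatase subunit Ppp1r15b by 0.87 and the GCN2 partner Gcn1l1 by 0.59. Of 25 other ATF4-pathway genes tested, 12 rose and 5 fell. Slc7a11, the cystine carrier, rose by 4.17 from between 1.76 and 5.90 CPM in vehicle to 67.9 and 40.4 CPM after TPA. Cbs, of the path from homocysteine to cysteine, fell by 2.48 and the neutral amino acid carrier Slc1a4 by 1.58. Of 16 genes of the endoplasmic reticulum unfolded protein response, 14 rose and 1 fell, with a median of 0.96, and the chaperones Hyou1, Hspa5 and Pdia4 rose by 1.50, 1.47 and 1.23.

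The scaling of the libraries bears on the smaller values. With library size alone, the median of all genes shifted to -0.25 and the calls over all genes went from 4472 higher and 4380 lower to 2846 higher and 6432 lower. Under it 26 of the 35 rose, and Qars, Phgdh, Psat1, Psph, Chac1 and Slc3a2 no longer passed.

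FA given before TPA was compared with TPA alone to ask what the glucocorticoid changes. Of the 35 genes, 1 rose and 3 fell in edgeR, where 5.71% of all genes tested rose and 4.31% fell (10% in either direction). The median log2 fold change was -0.16 against 0.01 for all genes. Keratinocyte markers summed higher in both FA+TPA libraries than in both TPA libraries, as given above, and the part of that shift in these values was not tested. Both FA+TPA libraries lay below both TPA libraries for 20 of the 35 genes and above them for 5. The FA+TPA values of 19 genes lay between the vehicle and the TPA values. The shares of all genes that separate in these ways were not computed, so these counts have no background beside them. This comparison shares its TPA libraries with the one above, so the comparisons are not independent of each other.

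The genes that fell were Aldh18a1, Aars and Nars. Aldh18a1 was at 29.7 CPM in WT FA+TPA and 29.6 in KO FA+TPA, below the 43.3 and 45.5 CPM of TPA alone and above every vehicle library. Its log2 fold change was -0.58 ± 0.12 (SE, edgeR, adjusted p = 0.0142). Aars, at 68.5 and 68.7 CPM after FA+TPA against 97.0 and 102 CPM after TPA, changed by -0.53 ± 0.09 (SE, edgeR, adjusted p = 0.00529). Nars, at 90.8 and 89.9 CPM against 120 and 123 CPM, changed by -0.42 ± 0.10 (SE, edgeR, adjusted p = 0.0219). For each of these 3, the genotypes gave nearly equal values within a treatment. Aars no longer passed without either FA+TPA library (adjusted p = 0.0675 without KO and 0.057 without WT, edgeR), and Nars and Aldh18a1 no longer passed without any one of the 4 treated libraries. Their log2 fold changes stayed between -0.66 and -0.42 in those fits.

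Phgdh was the gene that rose. It was at 13.4 and 15.0 CPM in WT and KO after TPA and at 17.8 and 22.0 CPM after FA+TPA, beside 8.95 to 11.4 CPM in vehicle. The FA+TPA libraries were the highest of the 8, and the log2 fold change was 0.48 ± 0.13 (SE, edgeR, adjusted p = 0.0396). That call was lost without either KO vehicle library and without any one of the 4 treated libraries, where the log2 fold change ran from 0.37 to 0.55. Chac1 was likewise highest in the FA+TPA libraries, at 10.5 and 11.7 CPM against 7.27 and 5.84 CPM after TPA. Its log2 fold change of 0.75 ± 0.23 did not pass (SE, edgeR, adjusted p = 0.0704). Without WT vehicle replicate 1 or without the WT TPA library it passed, at 0.76 and 1.13 (edgeR, adjusted p = 0.035 and 0.0351).

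The remaining groups showed small differences. Of the 20 synthetases, 2 fell and none rose, with a median of -0.20 and values from -0.53 to 0.17. After Aars and Nars the lowest were Rars (-0.33), Wars (-0.33), Vars (-0.31), Yars (-0.27) and Tars (-0.26), none of which passed. Cars was the highest at 0.17, with 129 and 108 CPM after FA+TPA against 108 and 103 CPM after TPA, and Hars (0.04) and Gars (-0.05) lay near 0. No mitochondrial synthetase was called in 17, with a median of -0.01. Atf4 was at 102 and 111 CPM after FA+TPA, between its vehicle and TPA values, and its log2 fold change of -0.31 ± 0.11 did not pass (SE, edgeR, adjusted p = 0.127). Asns (-0.48), Mthfd2 (-0.42) and Shmt2 (-0.40) did not pass either. The log2 fold changes of the 3 transporter genes ran from -0.04 to 0.16, and Slc7a5, at 78.6 and 92.5 CPM, stood close to its TPA value in each genotype. At an unadjusted p under 0.05, 16 of the 35 would pass, beside 4522 of all 19251 genes.

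**Figure D4:**
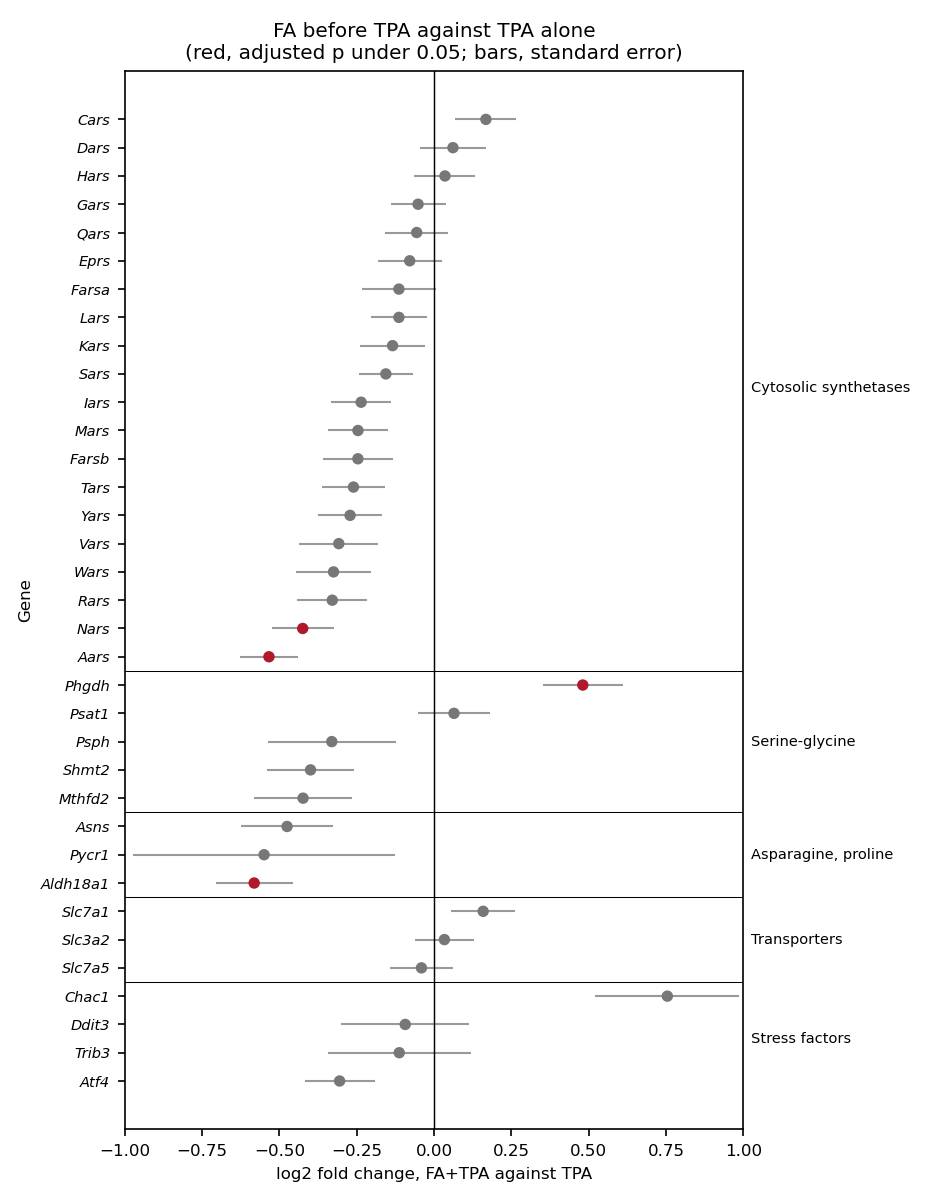
Log2 fold change of FA+TPA against TPA alone (points, with the standard error as bars) for the 35 genes by role, red where the edgeR adjusted p was under 0.05. Aars, Nars and Aldh18a1 are red and below 0, Phgdh is red and above 0, and Chac1 at 0.75 has the largest positive value without passing.

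Of the genes around the set, Aldh1l2 (-1.34) and Mthfd1l (-0.59) fell and Gldc rose by 1.38. Cbs rose by 1.41, Slc1a4 by 0.97 and Txnip, a glucose-responsive brake on glucose uptake, by 2.17. Of the eIF2 genes, Eif2b4 (-0.46) and the kinase gene Eif2ak2 (-0.70) fell and Ppp1r15a rose by 0.48. One of the 16 unfolded protein response genes was called, Pdia4 at -0.41.

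Against vehicle, FA+TPA left most of these genes high. Of the 35, 29 rose and none fell in edgeR, where 17.4% of all genes rose and 14.2% fell (31.6% in either direction), with a median of 0.56. Chac1 had the largest log2 fold change, 1.45 ± 0.20 (SE, edgeR, adjusted p = 0.000367), followed by Aldh18a1 (1.39), Slc7a5 (1.36) and, without passing, Pycr1 (1.19). Slc7a1 also stood at 1.19. Among synthetases 18 of 20 rose, with a median of 0.51, and Dars (0.22) and Qars (0.22) did not pass. Rars (1.02) and Cars (0.98) led the family. One of 17 mitochondrial synthetases was called, Sars2 at 0.42. Among the neighbouring genes, the scaffold gene Eef1e1 (0.56), the eIF2 genes Ppp1r15b (0.66), Eif2b4 (0.61) and Gcn1l1 (0.45), and the chaperones Hspa5 (1.25), Calr (1.17) and Hyou1 (1.16) rose. Slc7a11 (2.85), the ATF4 relative Atf5 (1.03), Aldh1l2 (1.48) and the glycine cleavage gene Gcsh (0.87) also rose, while Cbs (-1.07) and Gldc (-0.89) fell. Without the WT FA+TPA library 19 of the 35 rose, and 17 rose with library size alone, which shifted the median of all genes to -0.23.

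Knockout of REDD1 was compared with wild type over all treatments to ask whether loss of an mTORC1 inhibitor shifts these genes. None of the 35 was called by edgeR, where 1.98% of all genes were higher and 1.6% lower in knockout (3.58% in either direction). An unadjusted p under 0.05 was found for 8 of the 35, beside 3083 of all 19251 genes. DESeq2 called 1 higher (Psph) and 1 lower (Hars). The 20 synthetases had a median log2 difference of -0.04 and ran from -0.28 to 0.04. Hars, the histidyl enzyme gene, had the smallest p, with a difference of -0.28 ± 0.07 (SE, edgeR, adjusted p = 0.056). It was at 65.4 and 76.7 CPM in WT vehicle against 58.4 and 58.6 in KO vehicle, 122 against 101 after TPA and 126 against 103 after FA+TPA, so KO was lower within each treatment. It passed without WT vehicle replicate 1, at -0.33 (edgeR, adjusted p = 0.0243), and Psph passed without either TPA library, at 0.73 without KO and 0.72 without WT. Slc7a1 was lower in KO within each treatment too, at 102 against 94.0 CPM after FA+TPA, with a difference of -0.26 ± 0.07 (SE, edgeR, adjusted p = 0.0944). Atf4 differed by -0.02 ± 0.08 (SE).

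In vehicle skin alone, with 2 libraries on each side, edgeR called 1 of the 35, beside 1.44% of all genes higher and 0.727% lower (2.17% in either direction). At an unadjusted p under 0.05, 4 of the 35 passed, beside 2215 of all 19251 genes. The gene was Psph, at 14.2 and 17.7 CPM in WT against 27.8 and 29.1 CPM in KO. The KO pair lay above the WT pair without overlap, and the log2 difference was 0.84 ± 0.15 (SE, edgeR, adjusted p = 0.0223). Over its 18 alternative fits the difference stayed between 0.68 and 1.01 and the adjusted p between 5.46e-05 and 0.0392. Psph lies on the minus strand of chromosome 5 at 129765558 to 129787449 (mm10) and shares exon bases with Cct6a, a chaperonin subunit gene. The strand setting of the counting is not given in the sources used here. Cct6a was at 75.7 and 87.4 CPM in WT vehicle and 87.0 and 81.9 in KO vehicle, a difference of 0.05 ± 0.13 (SE, edgeR, adjusted p = 0.955). After TPA Cct6a rose by 1.03, and its part in the TPA value of Psph was not tested.

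In the treated skin the genotypes were close for Psph after TPA, 30.8 CPM in WT against 29.3 in KO, and 20.4 against 28.6 CPM after FA+TPA. The other enzymes of serine synthesis had positive values in KO vehicle without passing, 0.35 for Psat1 and 0.31 for Phgdh. In both the KO pair lay above the WT pair. Chac1, a stress factor, had a larger value of 0.58 ± 0.22 without passing (SE, edgeR, adjusted p = 0.324). It was at 2.83 and 3.67 CPM in WT vehicle against 4.83 and 4.90 in KO vehicle. Slc7a1 (-0.37), Trib3 (-0.36) and the serine-to-glycine enzyme gene Shmt2 (-0.25) lay the other way. In vehicle 16 of the 35 values were above 0 and 19 below. Among the 35 genes the KO vehicle pair lay above the WT pair for 6 and below it for 7. The share over all genes was not computed. Psat1 was at 67.3 and 74.6 CPM in WT vehicle against 90.1 and 90.3 in KO vehicle. Phgdh was at 9.44 and 8.95 against 11.4 and 11.4 CPM. Without WT vehicle replicate 2, Psat1 (0.43), Shmt2 (-0.46) and Slc7a1 (-0.44) passed in vehicle, and without WT vehicle replicate 1, Hars (-0.39) did. Of related genes outside the set, Aldh1l1, a cytosolic folate dehydrogenase, was higher in KO vehicle by 0.91. Over all treatments the double-stranded RNA kinase gene Eif2ak2 was higher in KO by 0.50.

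Whether the genotypes differed in their response was tested as an interaction, fitted with 1 mean per group and 2 residual degrees of freedom, so that single treated libraries were assumed to vary like the vehicle pairs. For TPA none of the 35 was called by edgeR (0.00519% of all genes were). Of all 19251 genes, 1014 had an unadjusted p under 0.05, and 2 of the 35 did. These were Psph, at -0.91 ± 0.26 (SE, edgeR, adjusted p = 0.541), and Chac1, at -0.90 ± 0.37 (SE, edgeR, adjusted p = 0.905). Without WT vehicle replicate 2 the Psph interaction passed, at -1.10 (edgeR, adjusted p = 0.00638). For both, the KO rise with TPA was smaller in value than the WT rise, and the KO vehicle level was higher. The synthetases ran from -0.16 to 0.14 with a median of -0.01, and Atf4 stood at -0.01 ± 0.23 (SE). For FA none of the 35 was called (0% of all genes), and none had an unadjusted p under 0.05, beside 613 of all 19251 genes. DESeq2 and limma-voom also called none of the 35 in either interaction. The standard errors of the TPA interaction for the synthetases ran from 0.20 to 0.26 on the log2 scale. A response that did not pass here is not shown to be equal in the genotypes.

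Counts of some members can be affected by a neighbour with which they share exon bases. Reads on the shared bases may have been dropped or assigned to either gene, and which of these happened was not tested. Exons of Hars and Hars2, of Mars and Ddit3, of Yars and C77080, of Psph and Cct6a, of Shmt2 and Ndufa4l2, of Farsb and Sgpp2 and of Cars and Gm15580 overlap in the annotation. Aars shares exon bases with Exosc6 on the same strand and with Gm24103 on the opposite strand, both at 0 counts in all libraries. Reads shared with them may have been dropped, so these 0 counts do not tell whether the Aars counts were affected. C77080 was at between 195 and 312 CPM in vehicle, above Yars at 35.8 to 47.8 CPM, and changed by -0.36 after TPA, opposite in sign to Yars at 0.64. Sgpp2 rose by 3.02 after TPA, from between 1.97 and 6.86 CPM to 26.6 and 26.8 CPM, beside 38.0 to 39.9 CPM of Farsb. A second identifier with the symbol Ddit3 was at 0 in all libraries, and reads shared between the 2 identifiers may have been dropped. The values of these genes are therefore uncertain.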

How the data were processed

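RNA sequencing of total RNA from scraped epidermis gave 8 libraries in 6 groups, taken from the labels. The authors deposited raw read counts per Ensembl gene, not normalised; per the submitters' processing notes they used Trim Galore, STAR, HTSeq and mm10. No version, annotation release, strand option or filter is given in the sources used here. Symbols, coordinates and exon lengths came from GENCODE M21, which matched 54165 identifiers and not 67. CPM values here are counts scaled to the library total of the tested genes times its TMM factor. These factors ran from 0.8595 in WT TPA to 1.102 in KO vehicle replicate 1. Only the CPM values of the 3-count floor use the library total alone, so they are on a slightly different scale.

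The test was the quasi-likelihood F test of edgeR 4.0.16 (R 4.3.3), with TMM factors, Benjamini-Hochberg adjustment at 0.05 and filterByExpr grouped by treatment (minimum count 10), which kept 19251 genes. Treatments and the genotype over all treatments used an additive fit on all 8 libraries. KO against WT in vehicle and the interactions used 1 mean per group. Standard errors were derived from the log2 fold change and its F value. They include the variation between libraries that the fit estimated, which could be technical. The floor of 3 counts covers counting error only. DESeq2 1.42.0, limma 3.58.1 (voom) and the alternatives in the closing section were run beside it. Fits were tested on simulated counts with 200 changed genes.

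The members, the pathway and marker lists and the tests were chosen with earlier results of these data known. Every member is reported. From each other pathway list, up to 3 called genes with the smallest p were eligible to be named in each comparison, or the 1 with the smallest p where none was called, and those that passed are given, except a few items that are not reported here. Promoter sequences are from RefSeq on GRCm38.p6. The vehicle pairs differed by more than sampling noise (chi-square per degree of freedom 27.6 in WT and 12.4 in KO) and were kept as separate replicates.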

Additional observations from a re-analysis of the deposited data

How the results depend on the processing

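Over 16 alternatives, 26 of the 32 genes called for TPA kept their call, with 26 called by library size alone and 28 to 31 leaving out 1 library. For FA+TPA against TPA, none of the 4 calls held in every alternative. Phgdh, the gene called higher, lost its call with RLE scaling, library size alone, DESeq2, no low-count filter and 1 mean per group. In the last 2 of these fits Chac1 was called higher instead. Over the 16 alternatives the log2 fold change of Phgdh ran from 0.37 to 0.55. Of genes called lower, 5 were found without a low-count filter and 0 to 6 leaving out 1 library. For FA+TPA against vehicle, 17 rose with library size alone and 19 to 31 leaving out 1 library. Over all treatments, knockout had 1 gene higher with library size alone, no low-count filter or DESeq2, and 1 lower with no low-count filter or DESeq2, and 0 to 1 in each direction leaving out 1 library. In vehicle, leaving out 1 library gave 1 to 2 genes higher and 0 to 2 lower in knockout. For the TPA interaction it gave 0 to 1 lower. No value changed its sign while called. The cause of these changes was not tested. The interactions could not be fitted without the treated library they rest on, so those fits were not run.

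The vehicle replicate numbers do not pair the samples (correlation of deviations -0.12). With the replicate block, knockout against wild type in vehicle called 1 of the 35 higher, as without the block, and over all genes 489 higher and 162 lower against 213 and 67. The additive fit with the replicate block called 0. The crossed pairing, added after seeing the data, called 1 higher in vehicle (527 higher and 206 lower over all genes) and 1 lower in the additive fit. Depth limited Pycr1 most, with 4 to 45 counts a library. Over all genes, FA+TPA against vehicle went from 3347 higher and 2729 lower to 1953 and 4982 with library size alone, and knockout over all treatments from 382 and 308 to 640 and 233. Without a low-count filter the latter gave 958 and 594, and with 1 mean per group 257 and 193. Knockout in vehicle, at 278 and 140, gave 153 and 66 at a minimum count of 50 and 187 and 79 with DESeq2. The TPA interaction, at 0 and 1, gave 0 and 3 with library size alone, 2 and 19 without a filter, 1 and 10 with DESeq2 and none with limma-voom or a minimum count of 50. The FA interaction, at 0 and 0, gave 6 and 1 with DESeq2. Leaving out 1 library moved these counts further. Without WT vehicle replicate 1 or 2, knockout in vehicle gave 558 and 402 or 868 and 597, the TPA interaction 133 and 203 or 56 and 309, and the FA interaction 138 and 45 or 101 and 27. Without KO vehicle replicate 1 or 2, the TPA interaction gave 23 and 106 or 32 and 68 and the FA interaction 42 and 9 each time. Without either FA+TPA library the TPA interaction gave 0 and 6. Knockout over all treatments gave 131 and 157 or 143 and 156 without the KO or WT FA+TPA library, and 191 and 191 or 191 and 169 without KO vehicle replicate 1 or 2. FA+TPA against TPA, at 1099 and 830, gave 496 and 339, 330 and 241, 483 and 504, and 549 and 453 without KO FA+TPA, WT FA+TPA, KO TPA and WT TPA. FA+TPA against vehicle gave 1925 and 1234 or 1672 and 980 without the KO or WT FA+TPA library.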
